A study of Mus musculus with 30 samples.

Results

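A set of 10 genes of fat cells were followed through 30 samples of subcutaneous B16F10 melanomas: Adipoq, Cfd, Plin1, Fabp4, Lpl, Pparg, Car3, Aoc3, Scd1 and Pnpla2. They were taken by symbol from a table of 18975 genes, and all 10 were found. B16F10 is a transplanted mouse melanoma line. Tumors grew for 7 days under the skin of the flank of female C57BL/6 mice, which were then given antibody 2 times a week. The hosts were heterozygous for the ARE-del allele (HET) or wild type (WT, genotype label ARE-del +/+); ARE-del belongs to the host, and the injected low-passage B16F10 cells were not derived from these animals. The 8 groups were HET hosts given anti-PD1 with agonist anti-CD40 (the combination, n = 4), anti-CD40 alone (n = 4), anti-PD1 alone (n = 3) or control rat IgG2A (n = 4), and WT hosts given the combination (n = 3), anti-CD40 (n = 3), anti-PD1 (n = 4) or IgG2A (n = 5). Each therapeutic antibody was given at 0.25 mg; the dose of IgG2A is not stated. The labels do not state that replicates came from separate mice, so each p-value here reflects only sample-to-sample spread, which may be technical. Each library is called a tumor below. The 10 genes are set out by how restricted to fat they are, from adiponectin to genes that melanoma cells also express.

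White adipocytes store triglyceride in a single droplet coated with perilipins, and they release fatty acids from it through a chain of lipases. PPARγ is the nuclear receptor that drives their differentiation, and adiponectin and adipsin are secreted proteins made chiefly by mature fat cells. The skin of the mouse flank rests on a layer of dermal and subcutaneous fat, with a thin sheet of muscle, the panniculus carnosus, beneath it. The 10 genes differ in how restricted they are. Adipoq (adiponectin), Cfd (adipsin, complement factor D) and Plin1 (perilipin 1) mark fat. Fabp4 (a fatty acid carrier), Lpl (lipoprotein lipase), Pparg, Car3 (carbonic anhydrase 3) and Aoc3 (vascular adhesion protein 1) are abundant in fat, but other host cells such as capillary endothelium, macrophages, skeletal muscle or smooth muscle make some of them too. Scd1 (a fatty acid desaturase) and Pnpla2 (adipose triglyceride lipase) are made by many proliferating or lipid-handling cells, melanoma cells among them.

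In the mm10 assembly Adipoq lies on chromosome 16 from 23146536 to 23158028 (plus strand), Cfd on chromosome 10 from 79890853 to 79892655 (plus), Plin1 on chromosome 7 from 79720218 to 79732903 (minus), Pparg on chromosome 6 from 115360951 to 115490399 (plus) and Pnpla2 on chromosome 7 from 141455198 to 141460743 (plus). Fabp4 lies on chromosome 3 from 10204088 to 10208576 (minus), Lpl on chromosome 8 from 68880491 to 68907448 (plus), Car3 on chromosome 3 from 14863512 to 14872523 (plus), Aoc3 on chromosome 11 from 101330605 to 101341938 (plus) and Scd1 on chromosome 19 from 44394455 to 44407879 (minus). No exon of a listed gene overlaps an exon of another gene in GENCODE vM21. RefSeq promoters (GRCm38.p6) were found for 5 of the 10 genes, and the 250 bases before the start are shown for the 3 fat-restricted genes, for Pparg as the regulator of the group, and for Pnpla2 as the contrast of broad expression. They are Adipoq (chr16:23146286-23146535, plus), Cfd (chr10:79890603-79890852, plus), Plin1 (chr7:79732777-79733026, minus), Pparg at 1 of its 3 listed starts (chr6:115362099-115362348, plus) and Pnpla2 (chr7:141454938-141455187, plus). Capitals mark matches, on either strand, to AGGTCA (a nuclear receptor half-site, the kind of element PPARγ with RXR binds in pairs), CCAAT (the CCAAT box) or TATAAA (the TATA box).
Adipoq: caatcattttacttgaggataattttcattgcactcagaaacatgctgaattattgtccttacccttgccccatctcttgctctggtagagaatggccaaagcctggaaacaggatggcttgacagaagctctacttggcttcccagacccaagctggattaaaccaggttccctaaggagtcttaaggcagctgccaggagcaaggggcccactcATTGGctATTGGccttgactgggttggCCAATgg
Cfd: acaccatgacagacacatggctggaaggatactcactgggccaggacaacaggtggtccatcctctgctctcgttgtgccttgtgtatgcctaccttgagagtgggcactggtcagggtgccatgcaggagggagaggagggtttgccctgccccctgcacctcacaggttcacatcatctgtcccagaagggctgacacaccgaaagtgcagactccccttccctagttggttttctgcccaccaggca
Plin1: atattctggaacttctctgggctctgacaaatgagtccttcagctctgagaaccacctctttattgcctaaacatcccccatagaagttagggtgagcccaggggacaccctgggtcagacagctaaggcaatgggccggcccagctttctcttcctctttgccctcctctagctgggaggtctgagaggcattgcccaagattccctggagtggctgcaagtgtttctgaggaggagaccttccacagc
Pparg: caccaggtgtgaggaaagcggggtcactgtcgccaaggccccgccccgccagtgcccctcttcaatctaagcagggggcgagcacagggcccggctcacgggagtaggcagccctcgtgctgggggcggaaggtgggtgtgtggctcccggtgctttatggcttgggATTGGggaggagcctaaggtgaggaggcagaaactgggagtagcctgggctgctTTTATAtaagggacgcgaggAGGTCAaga
Pnpla2: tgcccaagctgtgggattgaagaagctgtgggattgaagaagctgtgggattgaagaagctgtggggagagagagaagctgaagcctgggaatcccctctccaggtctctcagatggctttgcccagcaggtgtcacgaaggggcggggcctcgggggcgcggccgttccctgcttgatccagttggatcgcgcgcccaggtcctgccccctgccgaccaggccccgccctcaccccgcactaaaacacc
Adipoq holds 3 CCAAT boxes, at -34, -27 and -7 counted back from the start. This Pparg start holds a half-site at -9, a CCAAT box at -83 and a TATA box at -29. The other Pparg starts differ: the stretch from 115360894 holds only a half-site, at -28, and that from 115421816 only CCAAT boxes, at -144 and -22. The stretches of Cfd, Plin1 and Pnpla2 hold none of the 3 motifs, which says only that these letters are not in this window. Of 32851 promoters of the same length, 14.0% hold a half-site, 33.8% a CCAAT box and 12.4% a TATA box. GC content is 48.8% for Adipoq, 54.0% for Plin1, 57.6% for Cfd, 63.6% for this Pparg start and 63.2% for Pnpla2, against a median of 52.4%.

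Libraries held 17.6 M to 36.0 M reads over the genes of the table (median 24.9 M), so a single read (1 read) equalled 0.0276 CPM, the value scaled to library size, at the greatest depth and 0.0596 CPM at the least. The labelled cell type, melanoma, was checked by Dct, an enzyme of melanin synthesis, which had 155360 to 405610 reads in every library. The test used throughout is limma on the deposited log2 CPM values of all 30 libraries, with Benjamini-Hochberg adjustment over the 15002 genes kept. All 10 genes passed that filter, but Adipoq did so through 7 libraries of 4 groups and Plin1 through 4 libraries of 3 groups. A label number written L5 to L8, which the labels do not explain, moves with the groups: L5 holds WT IgG and most of WT anti-PD1, L6 the WT groups given anti-CD40, L7 HET anti-PD1 and most of HET anti-CD40, and L8 the HET combination. In bulk RNA, fewer fat cells and less RNA per fat cell cannot be told apart.

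Of the fat-restricted genes, Adipoq and Plin1 were near absent from most tumors and plain in a few, most of them in HET hosts given anti-CD40 with or without anti-PD1. Cfd was more widely found, with a log2 CPM above 0 in 20 libraries of 8 groups. Adipoq, the adiponectin hormone, had 31, 5, 37 and 297 reads in HET combination tumors. It had 11, 3, 33 and 85 reads in HET anti-CD40 tumors, 5, 4 and 9 in HET anti-PD1 tumors and 6, 2, 1 and 3 in HET IgG tumors. In WT hosts it had 0, 0 and 4 reads in combination tumors, 1, 26 and 5 in anti-CD40 tumors, 16, 52, 10 and 2 in anti-PD1 tumors, and 7, 1, 1, 12 and 1 in IgG tumors. The HET combination and HET anti-CD40 groups each had 1 library that overlapped the IgG range, and 1 library alone, HET combination replicate 4, held 297 of the 370 reads of its group. The mean was 3.12 ± 4.64 CPM in the HET combination, 1.11 ± 1.16 CPM in HET anti-CD40 and 0.119 ± 0.0618 CPM in HET IgG (SD, n = 4 each). The SD of the combination is larger than its mean.

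Cfd, the serine protease adipsin, had the widest range of the 3. It had 513, 75, 635 and 2390 reads in HET combination tumors, 152, 31, 559 and 1164 in HET anti-CD40 tumors, 28, 0 and 77 in HET anti-PD1 tumors and 36, 7, 7 and 2 in HET IgG tumors. Among WT hosts Cfd had 0, 31 and 18 reads in combination tumors, 8, 200 and 42 in anti-CD40 tumors, 87, 317, 117 and 13 in anti-PD1 tumors, and 82, 2, 0, 33 and 22 in IgG tumors. Every HET combination library stood above every HET IgG library and above every WT combination library, while WT anti-PD1 overlapped WT IgG. Plin1, which coats the fat droplet and gates lipase access to it, was scarcer. It had 20, 6, 55 and 176 reads in HET combination tumors, 18, 3, 18 and 38 in HET anti-CD40 tumors, 2, 0 and 6 in HET anti-PD1 tumors and 2, 2, 0 and 1 in HET IgG tumors. WT hosts gave Plin1 0, 1 and 2 reads in combination tumors, 0, 5 and 2 in anti-CD40 tumors, 10, 35, 3 and 0 in anti-PD1 tumors, and 11, 0, 2, 1 and 0 in IgG tumors. Plin1 had no read in 7 libraries, Adipoq in 2.

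The genes of broad expression were abundant in every tumor and varied less than the fat-restricted genes. Scd1, which makes monounsaturated fatty acids, stood at 227, 343, 174 and 344 CPM in HET combination tumors, 234, 210, 133 and 226 CPM in HET anti-CD40 tumors, 241, 292 and 244 CPM in HET anti-PD1 tumors and 223, 251, 231 and 325 CPM in HET IgG tumors. In WT hosts it stood at 345, 265 and 338 CPM in combination tumors, 305, 293 and 196 CPM in anti-CD40 tumors, 171, 222, 108 and 239 CPM in anti-PD1 tumors, and 365, 321, 318, 116 and 197 CPM in IgG tumors. Its highest library, WT IgG replicate 1, held 7 Adipoq reads. Pnpla2, the lipase that takes the first fatty acid off a triglyceride, was the steadiest of the 10. It stood at 49.8, 51.2, 49.5 and 49.1 CPM in HET combination tumors, within 0.926 CPM (SD, n = 4), although their Adipoq reads ran between 5 and 297. Its mean was 52.7 ± 8.18 CPM in HET anti-CD40 (n = 4), 48.1 ± 4.58 CPM in HET anti-PD1 (n = 3) and 48.7 ± 14.4 CPM in HET IgG (n = 4). In WT tumors Pnpla2 averaged 45.8 ± 10.8 CPM in the combination, 48.3 ± 2.16 CPM in anti-CD40 (n = 3 each), 53.0 ± 14.6 CPM in anti-PD1 (n = 4) and 47.1 ± 11.95 CPM in IgG (n = 5). It lay between 36.5 and 73.3 CPM in all 30 libraries, a 2.01-fold range, and its SD of 0.26 on the log2 scale was below the median SD of 0.37 over the genes kept. Scd1 had an SD of 0.46, larger than that of 65.1% of genes. Adipoq, Plin1 and Cfd had 1.65, 1.62 and 2.68, larger than that of 97.8% of genes or more.

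**Figure D1:**
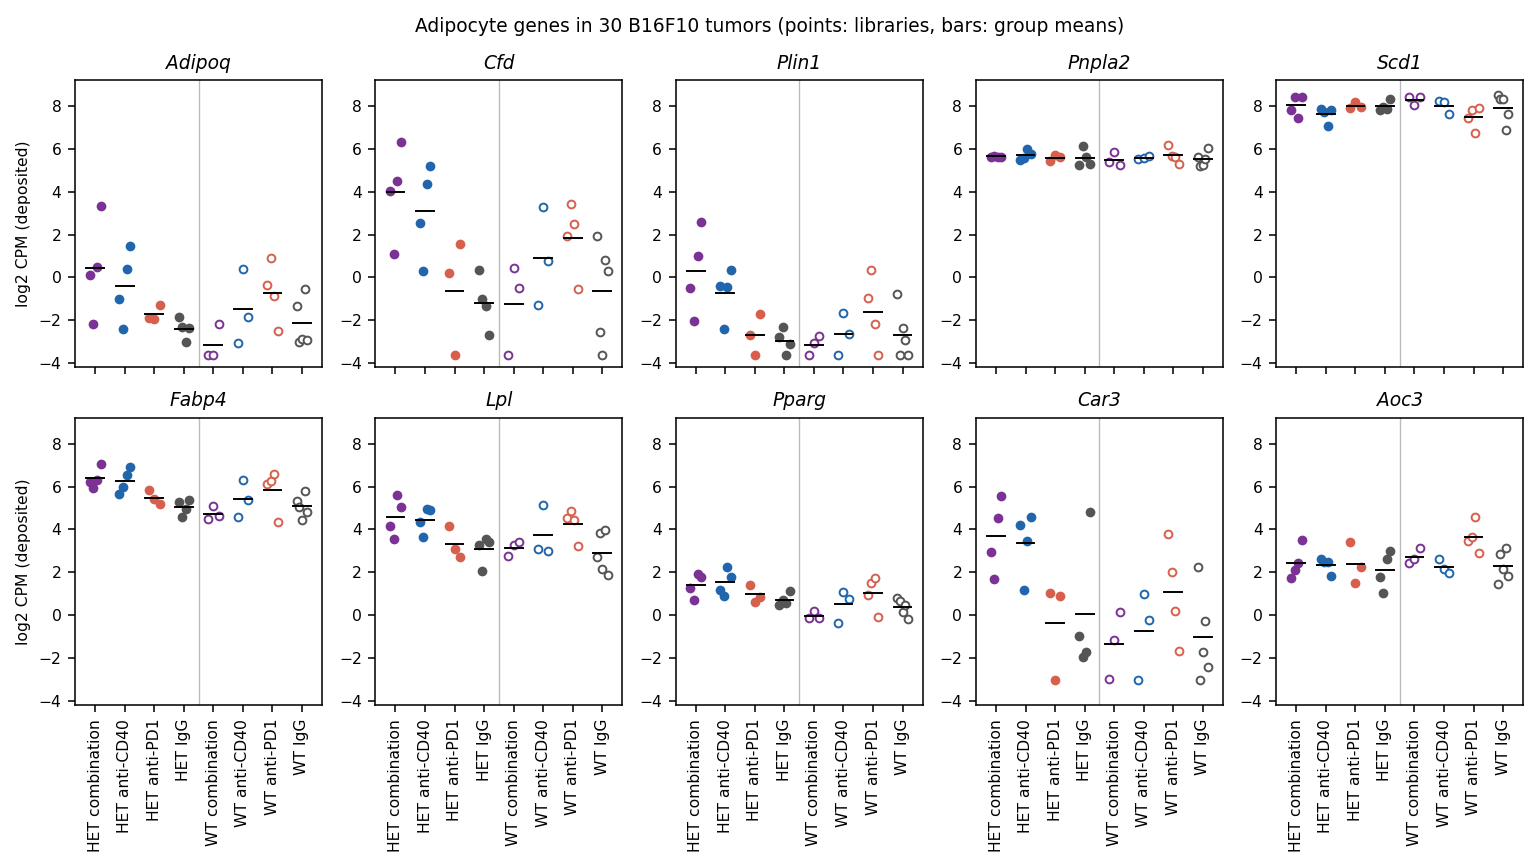
Deposited log2 CPM (vertical axis) of the 10 genes in the 8 groups (horizontal axis), with filled points for libraries of HET hosts, open points for libraries of WT hosts and bars for group means. Adipoq, Cfd, Plin1 and Car3 spread over 6.24 to 9.98 log2 units, while Pnpla2 and Scd1 stay within 1.01 and 1.76.

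Of the remaining genes, which other host cells also make, Fabp4, Lpl, Pparg and Aoc3 lay between these extremes of spread. Car3, with an SD of 2.68 on the log2 scale, varied as widely as Cfd. Fabp4, a carrier of fatty acids in adipocytes, capillary endothelium and macrophages, stood at 75.0, 61.4, 80.3 and 131 CPM in HET combination tumors, 50.2, 63.0, 93.6 and 122 CPM in HET anti-CD40 tumors, 58.0, 42.5 and 36.6 CPM in HET anti-PD1 tumors and 38.8, 23.6, 31.0 and 41.7 CPM in HET IgG tumors. Fabp4 in WT hosts stood at 22.5, 33.7 and 24.7 CPM in combination tumors, 23.8, 78.6 and 41.5 CPM in anti-CD40 tumors, 69.5, 76.8, 96.1 and 20.3 CPM in anti-PD1 tumors, and 40.1, 33.3, 21.6, 55.9 and 28.2 CPM in IgG tumors. Fabp4 never went to 0: the 2 WT combination libraries without an Adipoq read held 482 and 833 Fabp4 reads. Both HET groups given anti-CD40 lay wholly above HET IgG. Lpl, which frees fatty acids from circulating lipoproteins, stood at 18.0, 11.7, 47.9 and 32.6 CPM in HET combination tumors, 20.001, 12.3, 31.2 and 30.4 CPM in HET anti-CD40 tumors, 17.8, 8.55 and 6.56 CPM in HET anti-PD1 tumors and 9.57, 4.12, 11.6 and 10.7 CPM in HET IgG tumors. In WT hosts it stood at 6.66, 9.52 and 10.5 CPM in combination tumors, 8.41, 35.5 and 7.85 CPM in anti-CD40 tumors, 23.1, 29.3, 21.3 and 9.17 CPM in anti-PD1 tumors, and 6.39, 14.3, 4.30, 15.7 and 3.55 CPM in IgG tumors. The 2 HET groups given anti-CD40 did not overlap HET IgG for Lpl either. Pparg averaged 2.70 ± 0.949 CPM in the HET combination, 2.98 ± 1.26 CPM in HET anti-CD40 (SD, n = 4 each), 1.92 ± 0.5683 CPM in HET anti-PD1 (n = 3) and 1.59 ± 0.340 CPM in HET IgG (n = 4). Pparg in WT hosts averaged 0.912 ± 0.123 CPM in the combination and 1.46 ± 0.688 CPM in anti-CD40 (SD, n = 3 each), 2.17 ± 1.06 CPM in anti-PD1 (n = 4) and 1.25 ± 0.351 CPM in IgG (n = 5).

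Car3 and Aoc3 each departed from the fat pattern in their own way. Car3, which is abundant in fat and in slow skeletal muscle, had 243, 113, 656 and 1414 reads in HET combination tumors, 489, 59, 296 and 745 in HET anti-CD40 tumors, 51, 1 and 48 in HET anti-PD1 tumors and 13, 3, 5 and 748 in HET IgG tumors. In WT hosts it had 1, 9 and 29 reads in combination tumors, 1, 40 and 20 in anti-CD40 tumors, 314, 118, 23 and 5 in anti-PD1 tumors, and 103, 1, 4, 15 and 2 in IgG tumors. HET IgG replicate 4, with 748 Car3 reads, had 3 Adipoq reads, 2 Cfd reads and 1 Plin1 read, and its skeletal muscle score (the mean log2 CPM of 16 muscle genes) was 4.28. Aoc3, an amine oxidase of adipocytes, endothelium and smooth muscle, was highest in WT anti-PD1 tumors, at 13.6 ± 7.12 CPM (SD, n = 4), against 5.29 ± 2.61 CPM in WT IgG (n = 5). Its mean was 6.71 ± 1.82 CPM in the WT combination and 4.71 ± 1.18 CPM in WT anti-CD40 (SD, n = 3 each). Among HET hosts Aoc3 averaged 6.05 ± 3.64 CPM in the combination, 5.10 ± 1.15 CPM in anti-CD40 (SD, n = 4 each), 5.94 ± 3.98 CPM in anti-PD1 (n = 3) and 4.80 ± 2.66 CPM in IgG (n = 4).

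Per kilobase of exon (RPKM, with the length over all exons of the annotation), the mean over 30 libraries was 51.1 for Scd1, 16.3 for Pnpla2, 11.995 for Fabp4 and 8.41 for Cfd. It was 2.31 for Car3, 1.52 for Lpl, 1.42 for Aoc3, 0.642 for Pparg, 0.574 for Adipoq and 0.106 for Plin1. Fabp4 may stand too low in that order, since the exons of its transcripts together cover the whole gene (4489 bases). Within HET combination replicate 4, the library with the most fat RNA, Cfd reached 87.5 RPKM, Fabp4 29.1, Car3 16.7, Adipoq 7.26 and Plin1 1.28. By medians over the libraries the order was led by Scd1 at 49.0 RPKM and Pnpla2 at 16.3 RPKM and closed by Adipoq at 0.140 and Plin1 at 0.0240 RPKM. Car3 at 0.498 and Pparg at 0.551 RPKM, and Lpl at 1.11 and Aoc3 at 1.18 RPKM, were neighbours whose ranges over libraries overlapped.

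In HET hosts the combination was compared with IgG (n = 4 and 4) for the level of fat RNA under double therapy. All 10 genes had a higher mean, with a median log2 difference of 1.42 against -0.0033 over all genes tested. With a term for the L number that median was 0.78, Adipoq differed by 2.02 and Car3 by 0.64. Adipoq differed by 2.81 ± 0.94 (SE, adjusted p = 0.34), Cfd by 5.17 ± 1.37 (adjusted p = 0.25), Plin1 by 3.24 ± 0.87 (adjusted p = 0.25), Fabp4 by 1.34 ± 0.40 (adjusted p = 0.30), Lpl by 1.51 ± 0.54 (adjusted p = 0.36) and Car3 by 3.64 ± 1.42 (adjusted p = 0.41), all log2 differences by limma. Scd1 differed by 0.04 ± 0.30 and Pnpla2 by 0.08 ± 0.20. No gene of the table was called at an adjusted p under 0.05 (0.0%), and 6 of the 10 genes had an unadjusted p under 0.05, against 9.81% of all genes. Every library of the combination stood above every IgG library for 4 of the 10, Fabp4, Plin1, Cfd and Lpl, against 3.63% of all genes. The exact permutation p of Adipoq was 0.0571 (two-sided, n = 4 and 4, smallest possible 0.0286), and 0.27 after adjustment over 10 comparisons. Without HET combination replicate 4 the difference of Adipoq was 1.84 and did not pass.

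Anti-CD40 alone in HET hosts, against HET IgG (n = 4 and 4), was compared in the same way. A higher mean was found for 9 of 10 genes (median log2 difference 1.31 against -0.0066 over all genes), and Scd1 was lower at -0.38 ± 0.30. Cfd differed by 4.28 ± 1.37 (SE), Car3 by 3.31 ± 1.42, Plin1 by 2.25 ± 0.87, Adipoq by 2.0 ± 0.94, Lpl by 1.38 ± 0.54, Fabp4 by 1.23 ± 0.40 and Pparg by 0.81 ± 0.38, with limma's adjusted p between 0.21 and 0.33. Of the 10 genes 7 had an unadjusted p under 0.05, against 14.9% of all genes, and 0.0% of genes were called. Fabp4 and Lpl did not overlap HET IgG, against 3.23% of genes that stood wholly above it. Within L7, with 3 anti-CD40 and 2 IgG libraries, the difference was 1.65 for Adipoq, 3.57 for Cfd, 1.91 for Plin1 and 1.30 for Fabp4. Once the fit held terms for keratinocyte and skeletal muscle scores, the differences were smaller: 1.14 for Adipoq, 2.65 for Cfd and 0.15 for Car3, and in the combination 1.97, 3.53 and 0.78. These comparisons share the HET IgG libraries. Of those, replicate 2 had 6.53% mitochondrial reads and 1554 genes without a read, the most of the 30 libraries. Only replicate 4 of HET IgG was L8, as all HET combination libraries were.

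Anti-PD1 in HET hosts, against HET IgG (n = 3 and 4), gave small differences. Adipoq differed by 0.68 ± 1.02 (SE, limma, adjusted p = 1), the 10 genes lay between -0.41 and 0.68, and 0 of 10 had an unadjusted p under 0.05, against 0.96% of all genes, with 0.0% called. In WT hosts anti-PD1 against IgG (n = 4 and 5) had 9 of 10 genes higher, by a median log2 of 1.21 against -0.02 over all genes. Lpl differed by 1.36 ± 0.51 and Aoc3 by 1.36 ± 0.43 with an unadjusted p under 0.05 (2 of 10 genes, against 2.75% of all genes), and Adipoq by 1.41 ± 0.90, none past adjustment (adjusted p = 1.0 by limma, 0.0% called). Without WT anti-PD1 replicate 2 Adipoq differed by 0.88. Within L5 the differences were 2.01 for Adipoq, 1.61 for Aoc3 and 1.71 for Lpl. Anti-CD40 in WT hosts (n = 3 and 5) gave Adipoq 0.63 ± 0.98 (adjusted p = 0.78), which turned to -0.32 without WT anti-CD40 replicate 2. It was 1.41 without WT anti-CD40 replicate 1, 0.42 without WT IgG replicate 2 and 1.03 without WT IgG replicate 4. With a term for the L number it was 3.03, and the median of the 10 genes was 2.27 in place of 0.20. The 10 genes lay between -0.05 and 1.56, and there were 0 of 10 genes at an unadjusted p under 0.05 against 5.18% of all genes. The combination in WT hosts (n = 3 and 5) gave Adipoq -1.02 ± 0.98 (adjusted p = 1 by limma), which was -0.63 without WT IgG replicate 4 and 1.37 with a term for the L number, with the 10 genes between -1.02 and 0.45. Of them 0 had an unadjusted p under 0.05, against 0.413% of all genes, and 0.0% of genes were called in either comparison. These comparisons share the WT IgG libraries, all of them L5. WT anti-CD40 and the WT combination lay wholly in L6, so treatment and L number cannot be told apart for them.

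HET against WT under the combination (n = 4 and 3) gave a median log2 difference of 1.55 over the 10 genes, against -0.00085 over all genes, and of 1.14 with a term for the L number. Adipoq differed by a log2 of 3.58 ± 1.02 (SE), Cfd by 5.23 ± 1.48, Car3 by 5.03 ± 1.54, Plin1 by 3.42 ± 0.94, Fabp4 by 1.65 ± 0.43, Lpl by 1.45 ± 0.58 and Pparg by 1.43 ± 0.41, with limma's adjusted p between 0.66 and 0.77. Scd1 differed by -0.26 ± 0.32, Pnpla2 by 0.15 ± 0.22 and Aoc3 by -0.28 ± 0.49. Of the 10 genes 7 had an unadjusted p under 0.05, against 5.56% of all genes, and 6 stood wholly above the WT libraries (Fabp4, Plin1, Cfd, Pparg, Lpl and Car3), against 6.76% of all genes, while 0.0% were called. The exact permutation p of Adipoq was 0.0857 (two-sided, n = 4 and 3, smallest possible 0.0286). WT combination tumors held 4 Adipoq and 3 Plin1 reads in all, so these 2 fitted differences depend on the prior count: with 0.5 reads in place of 2 they were 4.91 and 4.52. Car3 differed by 1.48 when keratinocyte and muscle scores were terms of the fit, and by 0.997 when the L number was. L6 held all libraries of the WT combination and L8 all of the HET combination, so genotype and L number cannot be told apart here. Under anti-CD40, anti-PD1 and IgG the HET and WT groups shared no L number either, so the same holds there.

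Under anti-CD40, HET against WT (n = 4 and 3) gave Car3 4.11 ± 1.54 (SE), Plin1 1.94 ± 0.94 and Pparg 1.02 ± 0.41 with an unadjusted p under 0.05, which is 3 of 10 genes against 3.83% of all genes, and Car3 stood wholly above the WT libraries, against 2.36% of genes. Adipoq differed by 1.11 ± 1.02 (adjusted p = 1.0 by limma), and by 0.34 to 2.06 as single libraries of the 2 groups were left out. Pparg differed by 0.60 without WT anti-CD40 replicate 1. Car3 differed by 0.83 once keratinocyte and muscle scores were in the fit. Under anti-PD1 (n = 3 and 4) Adipoq differed by -0.99 ± 1.02 and Aoc3 by -1.27 ± 0.49, the 1 gene of 10 with an unadjusted p under 0.05, against 2.14% of all genes. Adipoq differed by -0.45 without WT anti-PD1 replicate 2 and by -1.58 without WT anti-PD1 replicate 4, and Aoc3 by -0.84 without HET anti-PD1 replicate 2, and the 10 genes lay between -2.46 and 0.54. With a term for the L number Adipoq turned to 2.004. Scd1 stood wholly above WT anti-PD1 in HET anti-PD1, as did 2.92% of genes. Under IgG (n = 4 and 5) Adipoq differed by -0.25 ± 0.90, and by 2.67 with a term for the L number. The 10 genes lay between -0.54 and 1.07, and 0 of 10 genes had an unadjusted p under 0.05, against 2.07% of all genes. Every genotype contrast called 0.0% of genes.

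Whether HET and WT hosts responded unequally to a treatment (the interaction) was tested last. For the combination it was 3.84 ± 1.36 for Adipoq, 3.70 ± 1.25 for Plin1, 5.77 ± 1.97 for Cfd and 1.69 ± 0.57 for Fabp4 (log2, SE), each with limma's adjusted p = 0.99. These 4 of 10 genes had an unadjusted p under 0.05, against 3.5% of all genes. A term for the L number left 0.65 for Adipoq, 0.58 for Plin1, 2.62 for Cfd and -0.71 for Fabp4, and turned the median of the 10 genes, 1.48 without it, to -0.45. Single libraries moved the other interactions of Adipoq: for anti-CD40 it was 1.36 ± 1.36, but 0.74 without HET anti-CD40 replicate 4, while leaving out a WT anti-CD40 library gave 0.59 (replicate 1) or 2.32 (replicate 2). For anti-PD1 it was -0.73 ± 1.36, but -0.20 without WT anti-PD1 replicate 2, -1.33 without WT anti-PD1 replicate 4 and -1.13 without WT IgG replicate 4. The 10 genes lay between -0.47 and 3.03 for anti-CD40 and between -2.53 and 0.48 for anti-PD1. These 2 interactions had 0 of 10 genes each at an unadjusted p under 0.05, against 2.23% and 1.03% of all genes, and 0.0% of genes were called in any interaction. Over the 13 comparisons, limma found 62 to 2230 genes at an unadjusted p under 0.05. Voom, a count-based fit on the recovered reads, called 0 genes in each and found 54 to 2172.

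**Figure D2:**
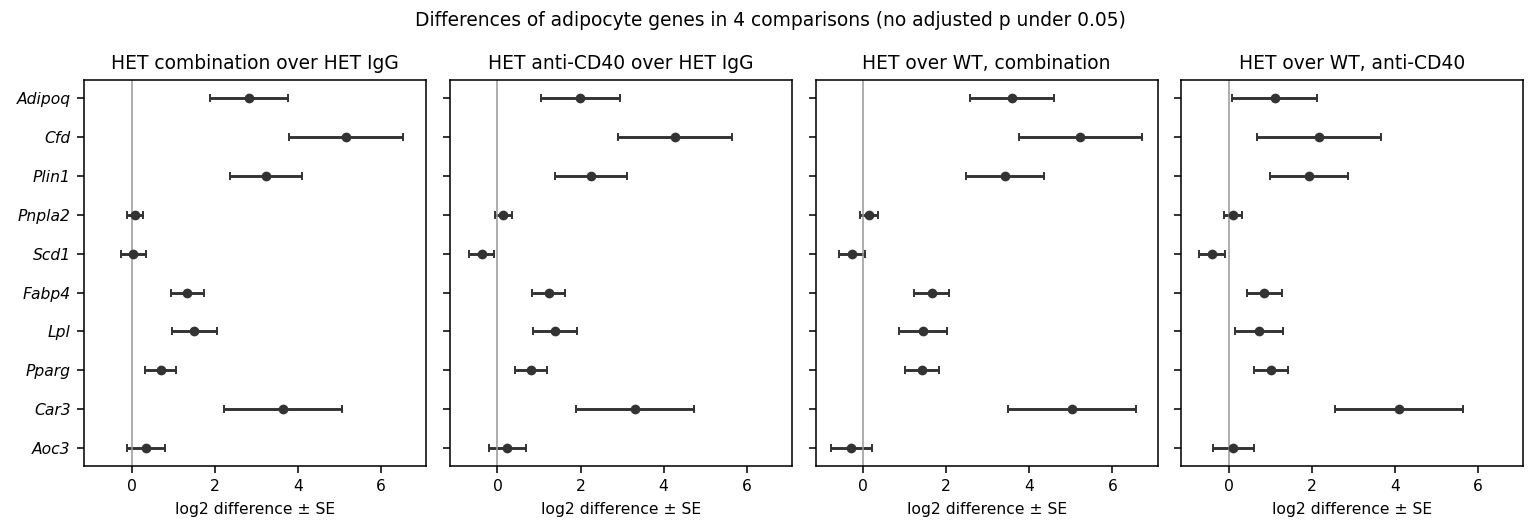
Log2 differences (horizontal axis) of the 10 genes (vertical axis) with their standard errors from limma, in 4 comparisons: the HET combination and HET anti-CD40 over HET IgG, and HET over WT under the combination and under anti-CD40. Cfd, Car3, Plin1 and Adipoq lie at 1.11 to 5.23 while Scd1 and Pnpla2 lie between -0.40 and 0.15, and no gene passed adjustment.

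The 10 genes were also compared library by library, whatever the group. Over the 30 libraries Plin1 followed Adipoq with r = 0.90 (Pearson, rho = 0.85), Cfd with r = 0.87 (rho = 0.86), Fabp4 with r = 0.85 (rho = 0.83), Pparg with r = 0.77 (rho = 0.79), Lpl with r = 0.77 (rho = 0.72) and Car3 with r = 0.76 (rho = 0.74). Each had a permutation p of 1e-05, the smallest that 100000 permutations give, and 4.7e-05 for r after adjustment over the 89 correlations computed. Aoc3 had r = 0.21 (rho = 0.10, adjusted p of r = 0.32), Scd1 r = -0.27 (rho = -0.38, adjusted p of r = 0.20) and Pnpla2 r = 0.25 (rho = 0.30, adjusted p of r = 0.22), all by permutation. Without the 2 libraries farthest from the median of Adipoq, replicate 4 of the HET combination and replicate 4 of HET anti-CD40, r was 0.83 for Plin1, 0.83 for Cfd, 0.81 for Fabp4, 0.76 for Pparg, 0.76 for Lpl and 0.69 for Car3. It was then -0.50 for Scd1, more negative than over all 30 libraries, 0.27 for Pnpla2 and 0.18 for Aoc3. Within the 4 L numbers, with 6 to 8 libraries each, r ran from 0.78 to 0.96 for Plin1, 0.80 to 0.90 for Cfd and 0.67 to 0.94 for Fabp4, and from 0.72 to 0.86 for Pparg. For Lpl it ran from 0.59 to 0.86 and for Car3 from 0.60 to 0.80, against -0.40 to 0.58 for Aoc3, -0.69 to -0.19 for Scd1 and -0.05 to 0.49 for Pnpla2.

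**Figure D3:**
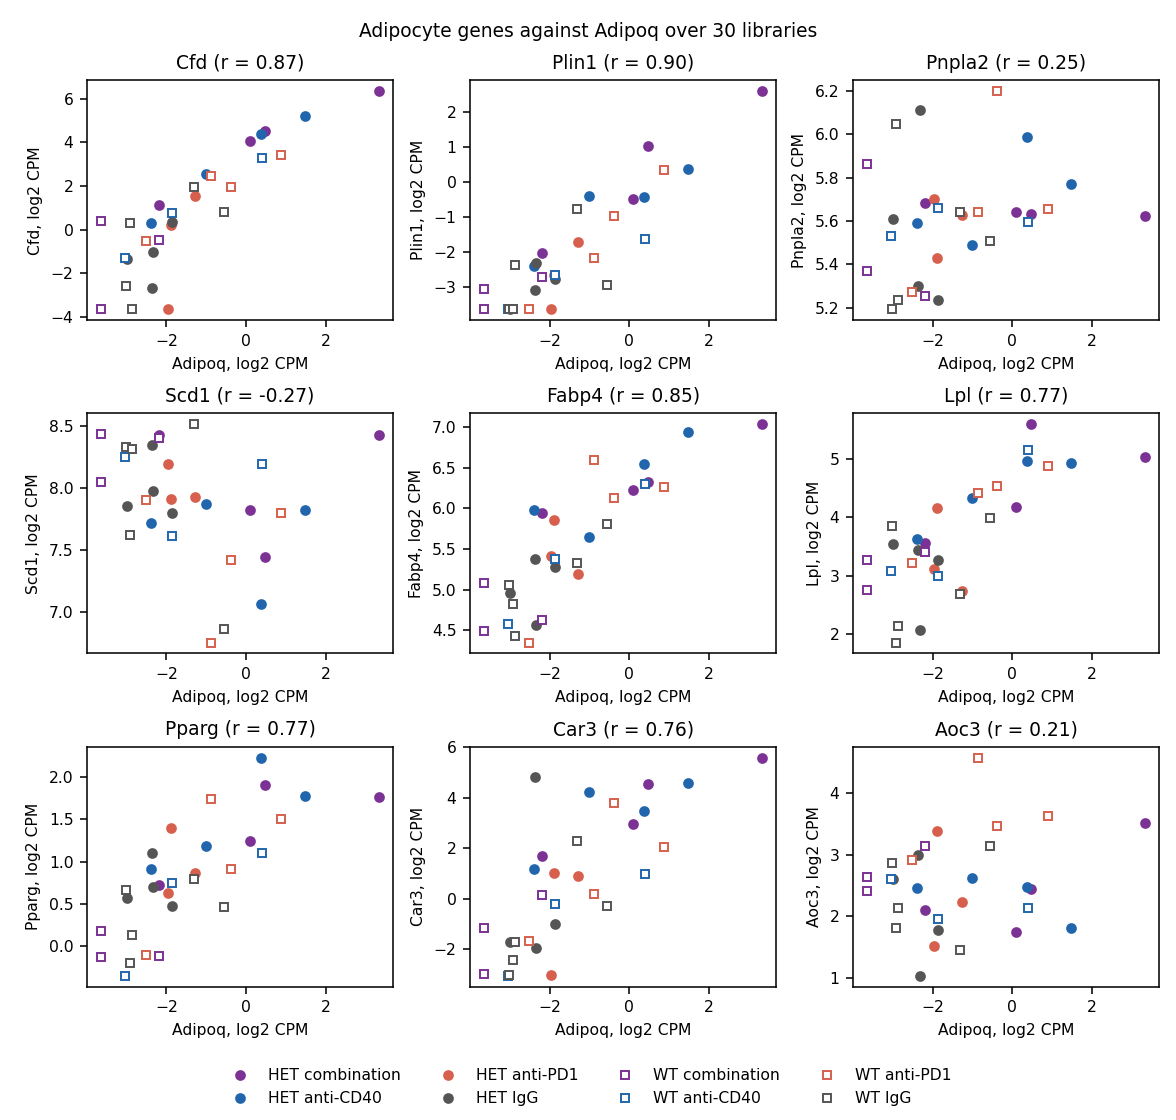
Deposited log2 CPM of 9 genes (vertical axes) against that of Adipoq (horizontal axes) in 30 libraries, with circles for HET hosts and squares for WT hosts. Cfd, Plin1 and Fabp4 climb with Adipoq over the 30 libraries (r = 0.85 to 0.90), whereas Scd1, Pnpla2 and Aoc3 do not (r = -0.27 to 0.25).

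The same relation was tested within groups, by the slope of each gene on Adipoq with group means removed, over 15001 genes. Of the 9 genes besides Adipoq, 6 rose with it: Plin1 by 0.77 ± 0.11 log2 units per log2 unit of Adipoq (SE, adjusted p = 0.00067), Cfd by 1.17 ± 0.19 (adjusted p = 0.0013), Fabp4 by 0.32 ± 0.06 (adjusted p = 0.0092), Lpl by 0.37 ± 0.09 (adjusted p = 0.040), Car3 by 0.97 ± 0.24 (adjusted p = 0.040) and Pparg by 0.25 ± 0.07 (adjusted p = 0.048), all by limma. Of all genes 1.24% rose with Adipoq (186 called higher and 45 lower). Aoc3 (0.09 ± 0.10), Scd1 (-0.04 ± 0.06) and Pnpla2 (0.03 ± 0.04) did not pass, with limma's adjusted p of 0.56, 0.71 and 0.72. With each library left out in turn, Plin1 and Cfd passed in all 30 fits, Fabp4 in 29, Lpl in 16, Car3 in 14 and Pparg in 9. The count over all genes rested on single libraries: it was 5022 (33.5% of genes) without HET combination replicate 4 and as few as 29 without WT anti-CD40 replicate 2, so the background of 1.24% is not stable. Plin1 and Cfd alone, 2 of the 9 genes, passed with a term for the L number. With the keratinocyte and muscle scores in the fit 4 passed (Lpl, adjusted p = 0.099, and Pparg, 0.17, did not, by limma). No gene passed within L5, L7 or L8. Within L6, where 2584 genes passed, Lpl and Car3 did (limma, adjusted p = 0.031 and 0.036). Plin1, Cfd and Fabp4 did not pass there (limma, adjusted p = 0.23, 0.068 and 0.055).

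Genes outside the 10 that tracked Adipoq most closely over the 30 libraries included further fat genes. Cidec, a protein of the fat droplet, had r = 0.93, Plin4, another perilipin, 0.90, Lep, the hormone leptin, 0.88, and Hp, haptoglobin, 0.87. Lrg1 had 0.87, Pck1, which feeds glycerol synthesis in fat, 0.86, and Ephx2, an epoxide hydrolase, 0.86. Clec10a, a lectin of macrophages and dendritic cells, had 0.85, and Htra3 and Tmem45b had 0.84 each. All 10 rose with Adipoq within groups (limma, adjusted p of 0.0010 or less), against 1.24% of all genes, but they were picked by r with Adipoq in the same libraries. In 11 libraries with at least 10 Adipoq reads, there were 2.75 to 17.2 Cfd reads for each Adipoq read (median 11.7), 0.083 to 1.64 Plin1 reads (median 0.593) and 0.538 to 3.03 Cidec reads (median 1.87). Fabp4 gave 13.0 to 206 reads per Adipoq read, Pnpla2 4.90 to 107 and Scd1 34.3 to 562, in each case the least in HET combination replicate 4. That library held the most Adipoq reads, 297, which are the divisor. A low ratio there is therefore given in advance for any gene that does not rise in step with Adipoq.

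Other genes of fat and lipid pathways were counted by list. Of 13 other adipocyte genes tested, 6 rose with Adipoq within groups (Cidec, Plin4, Lep, Pck1, Adig and Sncg), with slopes of 0.55 to 1.20, against 1.24% of all genes. Gpd1, at a median of 127 CPM, had a slope of -0.10 (limma, adjusted p = 0.27). The genes of these lists were not followed in the other fits. Of 15 genes of fatty acid and triglyceride synthesis 0 passed, and their median r with Adipoq was -0.42, against -0.0363 over all genes. Scd2, a desaturase like Scd1 at a median of 1704 CPM, had a slope of -0.16 (limma, adjusted p = 0.066) and Fasn, fatty acid synthase, -0.10 (limma, adjusted p = 0.26). Of 9 genes of lipolysis and the droplet, Plin4 and Cidec alone passed; the monoglyceride lipase Mgll and the broadly made perilipin Plin3, the most abundant by mean log2 value, had slopes of -0.12 and -0.03. Of 10 adipogenic regulators only Cebpa passed, with a slope of 0.62 (limma, adjusted p = 0.015). Of 7 partners of lipoprotein lipase 0 passed, with 0.01 for Lmf1, its folding factor, and -0.13 for Vldlr. In the HET combination against HET IgG, Cidec differed by 4.00 ± 1.08 (SE), Lep by 2.96 ± 0.97, Scd2 by -0.48 ± 0.25 and Fasn by -0.51 ± 0.26, none past adjustment by limma.

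Markers of other host cells moved with the fat genes. Of 11 macrophage genes 7 rose with Adipoq within groups (C1qa, C1qb, C1qc, Csf1r, Mrc1, Cd163 and Fcgr1, slopes 0.48 to 0.88), against 1.24% of all genes. Of 12 fibroblast genes 4 did (Pi16, Dpt, Dpp4 and Col3a1, slopes 0.47 to 1.03). With a term for the L number the genes called on Adipoq fell from 231 to 28, and these list genes were not followed in that fit. By r over 30 libraries with the mean log2 CPM of each list, Adipoq stood at 0.77 with macrophage and 0.75 with fibroblast genes (rho = 0.83 and 0.74, adjusted permutation p = 4.7e-05 for r). Without the 2 libraries farthest from each score's median these were 0.77 and 0.74, and within the L numbers they ran from 0.66 to 0.80 and from 0.65 to 0.87. Adipoq stood at 0.49 with sebaceous, 0.48 with keratinocyte, 0.48 with skeletal muscle and 0.44 with endothelial genes (rho = 0.49, 0.54, 0.44 and 0.51), where the adjusted permutation p of r was 0.027 or less, and at 0.34, 0.34, 0.47 and 0.54 without the 2 farthest libraries. Within the L numbers the muscle relation ran from -0.21 to 0.78 and the endothelial one from -0.03 to 0.65. Smooth muscle genes gave 0.15 and melanocyte genes -0.34, which did not pass (adjusted permutation p = 0.49 and 0.094). Nor did the skin relations hold in each L number: for Adipoq and keratinocyte genes r was 0.08 in L5, 0.85 in L6, 0.86 in L7 and 0.0022 in L8. HET combination replicate 4, the richest in Adipoq, had a keratinocyte score of -1.67. None of 16 keratinocyte, 16 skeletal muscle, 9 sebaceous, 12 endothelial, 9 smooth muscle or 12 melanocyte genes passed within groups. The median slope on Adipoq was 0.57 for keratinocyte, 0.41 for sebaceous, 0.32 for skeletal muscle, 0.17 for smooth muscle, 0.03 for endothelial and -0.05 for melanocyte genes, against -0.0082 over all genes. The 2 genes with the highest mean level of each list had slopes between -0.08 and 0.25, each below the median of its list: Sbsn and Dsp of keratinocytes, Des and Mylpf of muscle, Soat1 and Mgst1 of sebaceous cells, Eng and Vwf of endothelium, Mylk and Rgs5 of smooth muscle, and Dct and Pmel of melanocytes. The part of these cells in the results on the fat genes was not tested.

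Summed levels put sizes on those markers. The 16 skeletal muscle genes summed to 96.8 to 425 CPM in the HET combination, 55.7 to 714 CPM in HET anti-CD40, 11.9 to 453 CPM in HET IgG and 11.4 to 62.4 CPM in the WT combination. They summed to 17.8 to 64.1 CPM in HET anti-PD1 and 15.6 to 50.9 CPM in WT anti-CD40. The muscle sums were 12.3 to 333 CPM in WT anti-PD1 and 10.3 to 91.9 CPM in WT IgG. The 16 keratinocyte genes summed to 19.0 to 485 CPM in the HET combination, 11.9 to 1302 CPM in HET anti-CD40, 12.1 to 24.7 CPM in HET IgG and 11.8 to 18.4 CPM in the WT combination. Their highest sum was in WT anti-CD40, which ran from 16.2 to 2705 CPM. They summed to 14.0 to 27.9 CPM in HET anti-PD1, 13.7 to 111 CPM in WT anti-PD1 and 13.0 to 436 CPM in WT IgG. The 11 macrophage genes summed to 313 to 951 CPM in the HET combination, 354 to 971 CPM in HET anti-CD40, 160 to 270 CPM in HET IgG and 110 to 266 CPM in the WT combination. They summed to 168 to 203 CPM in HET anti-PD1 and 85.1 to 580 CPM in WT anti-CD40. The macrophage sums were 92.8 to 636 CPM in WT anti-PD1 and 54.3 to 367 CPM in WT IgG. The muscle myosin Myh2 had no read in 14 libraries and the keratin Krt1 in 16. In the HET combination against HET IgG, all 16 muscle, all 16 keratinocyte, all 11 macrophage and all 12 fibroblast genes had a higher mean, with medians of 2.42, 3.79, 1.47 and 1.80 (log2), beside 3.24 for the 3 fat-restricted genes.

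Single genes of the 10 were then set against these lists. By Pearson r, Car3 went most closely with skeletal muscle genes (r = 0.85, rho = 0.78, n = 30 libraries, adjusted permutation p = 4.7e-05). This r was 0.82 without the 2 libraries farthest from the median of the muscle score. Within the L numbers it ran from 0.23 in L6 to 0.97 in L7. By rho Car3 stood higher with macrophage genes (r = 0.81, rho = 0.83) and alike with fibroblast genes (r = 0.79, rho = 0.78). Within the L numbers these r ran from 0.44 to 0.92 and from 0.47 to 0.97. Aoc3 was the 1 gene of the 10 to pass with smooth muscle genes (r = 0.66, rho = 0.70, adjusted permutation p = 0.00027), with r = 0.61 without the 2 farthest libraries and 0.39 to 0.81 within the L numbers. It also passed with endothelial genes (r = 0.50, adjusted permutation p = 0.014). With keratinocyte and sebaceous genes its r was -0.41 and -0.40 (adjusted permutation p = 0.042 and 0.043). Fabp4 stood at r = 0.82 with macrophage and 0.74 with endothelial genes (rho = 0.84 and 0.77, adjusted permutation p = 4.7e-05 and 8.5e-05), at 0.80 and 0.74 without the 2 farthest libraries, and at 0.64 to 0.82 and 0.12 to 0.86 within the L numbers. Lpl stood at 0.84 with macrophage genes (rho = 0.85, adjusted permutation p = 4.7e-05), at 0.80 without the 2 farthest libraries and at 0.76 to 0.96 within the L numbers. Scd1 ran opposite to endothelial genes (r = -0.51, rho = -0.49, adjusted permutation p = 0.0097), at -0.40 without the 2 farthest libraries and -0.77 to -0.19 within the L numbers. Neither Scd1 (r = 0.16) nor Pnpla2 (r = -0.15) tracked the melanocyte score (adjusted permutation p = 0.43 and 0.47). Fabp4, Lpl and Car3 ran opposite to that score (r = -0.39, -0.43 and -0.42, adjusted permutation p = 0.049, 0.031 and 0.038). Without the 2 farthest libraries these were -0.21, -0.26 and -0.30. Pnpla2 passed with keratinocyte genes (r = 0.41, rho = 0.58, adjusted permutation p of r = 0.041), with r from 0.39 to 0.77 within the L numbers. Libraries share depth and total composition in all these correlations.

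**Figure D4:**
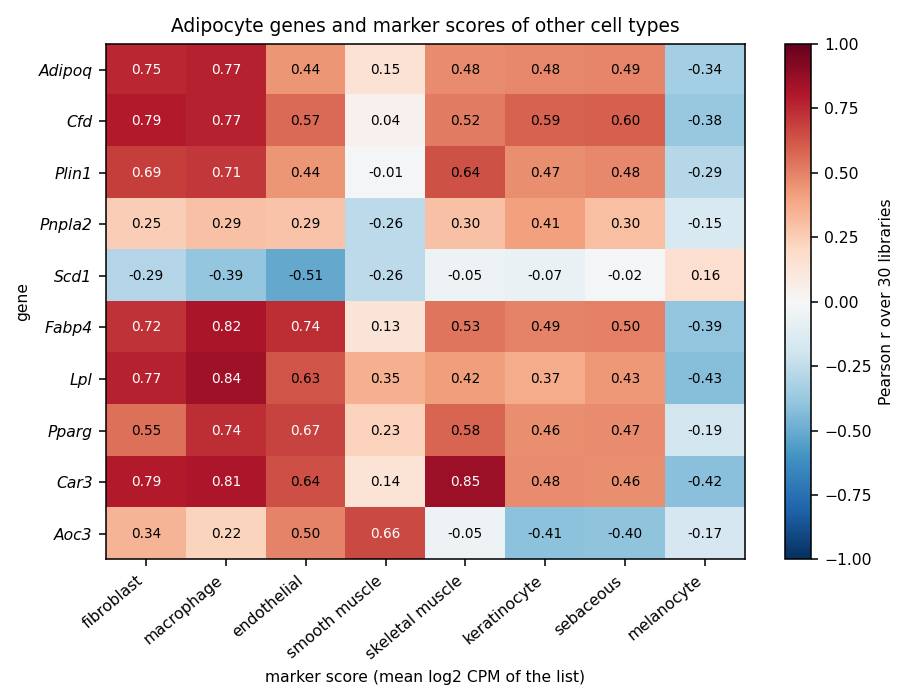
Pearson r over 30 libraries between the log2 CPM of each of the 10 genes (rows) and the mean log2 CPM of 8 marker lists (columns). Adipoq, Cfd, Plin1, Fabp4, Lpl, Pparg and Car3 share positive values with fibroblast and macrophage genes, Car3 reaches 0.85 with skeletal muscle, Aoc3 0.66 with smooth muscle, and Scd1 is at or below 0.16 throughout.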

How the data were processed

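Total RNA from each frozen tumor was made into Illumina TruSeq libraries, per the labels' protocols. The authors used STAR, edgeR and mm10, per the submitters' processing notes; versions, the annotation and the strand setting are not given in the sources used here. The deposited values are log2 CPM on effective library sizes, to which a library-scaled prior of 2 reads was added, as found from the values. Whole reads were recovered from them within 0.01 reads for 100% of values. Groups came from the titles and genotype labels. The filter kept 15002 genes, those whose log2 CPM exceeded 0 in 3 or more libraries. The 8 group means were estimated with limma 3.58.1 (intensity trend) in R 4.3.3, with 13 comparisons and Benjamini-Hochberg adjustment; a gene was called at an adjusted p under 0.05. Slopes on Adipoq used the same fit with Adipoq as a term. A difference on the log2 scale with its prior count understates the change of low genes. Lengths and positions are from GENCODE vM21 (mm10), promoters from RefSeq (GRCm38.p6). Permutations and figures used numpy 2.4.6, scipy 1.17.1, pandas 2.3.3 and matplotlib 3.10.9. The fits were tested on simulated data.

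The 10 genes and the marker and pathway lists were chosen with earlier results of these data known. All 10 are given in every group; Adipoq is given in every comparison, the others where an unadjusted p was under 0.05, and otherwise by range. From each other list the called members are named or, where none was called, the 2 with the highest mean value, with the 10 other genes closest to Adipoq by r. Values beyond that rule were chosen after they were seen. Few reads per library limit the precision of Adipoq and Plin1.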

Additional observations from a re-analysis of the deposited data

Results flagged for a closer look

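Car3 in HET IgG replicate 4 stood far from the other libraries of its group, at a log2 CPM of 4.82 against -1.95 to -0.98 in the other 3. It was the 1 such value among the 50 groups of 4 or 5 libraries examined for the 10 genes, and chance gives about 1 in 20. The same library held 3 Adipoq reads.

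For 4 genes every HET combination library lay above the HET IgG mean while every WT combination library lay below the WT IgG mean. The difference between the genotypes was 3.84 for Adipoq, 1.69 for Fabp4, 3.70 for Plin1 and 1.08 for Pparg (log2), and its test did not pass (limma, adjusted p = 0.99 for each). These were 4 of 30 gene and treatment pairs examined, and the share of all genes with this pattern was not computed. All HET combination libraries were L8 and all WT combination libraries L6. With a term for the L number the difference was 0.65 for Adipoq, 0.58 for Plin1 and -0.71 for Fabp4. Pparg lay 0.01 to 1.18 above the IgG mean in HET libraries and -0.50 to -0.19 from it in WT libraries, so it came close to the mean in 1 HET library.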

How the results depend on the processing

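No comparison between groups had a called gene with other filters, prior counts, library scales, voom or covariates. Leaving out single libraries gave 1 gene for HET anti-CD40 and 6 genes for the HET combination against HET IgG without HET IgG replicate 4, and 1 for HET anti-PD1 against HET IgG without HET anti-PD1 replicate 2. The L number as a covariate turned the direction of several Adipoq differences: 2.67 for HET against WT under IgG, 2.004 under anti-PD1, 1.37 for the WT combination against WT IgG and -0.73 for the anti-CD40 interaction. It turned Fabp4 to -0.71 in the combination interaction, and moved the median of the 10 genes to 1.96 for HET against WT under IgG, 1.06 under anti-PD1, 1.52 for the WT combination against WT IgG and -0.68 for the anti-CD40 interaction; this covariate rests on the few groups that span L numbers. Adipoq was also turned by single libraries: with 1 library left out it ran from -0.47 to 0.14 for HET against WT under IgG (above 0 without WT IgG replicate 4) and from -0.32 (without WT anti-CD40 replicate 2) to 1.41 for WT anti-CD40 against WT IgG. The slopes of the genes that did not pass lay around 0 and turned: Aoc3 to -0.0022 without HET combination replicate 4, -0.0051 within L5, -0.0090 within L6 and -0.12 within L7, Pnpla2 to -0.0046 with the keratinocyte and muscle scores, -0.037 within L6 and -0.011 within L8, and Scd1 to 0.0076 without WT IgG replicate 4 (lowest with 1 library left out -0.10), 0.038 within L6 and 0.010 within L8. Genes called on Adipoq numbered 231, against 28 with the L number, 44 with the keratinocyte and muscle scores, 357 with no filter, 4038 with no group term, 3045 without the 2 libraries farthest from the median of Adipoq, 0 within L5, L7 and L8 and 2584 within L6. They numbered 29 to 5022 with 1 library left out, over 1.5 times fewer for 10 of the 30 libraries and more for 1. Of the 9 genes 6 were called, against 2 with the L number (Plin1 and Cfd) and 2 others within L6 (Lpl and Car3). There were 4 with the keratinocyte and muscle scores, 0 within L5, L7 and L8, and 2 to 6 with 1 library left out. The fits within 1 L number have fewer libraries. The fits of comparisons within 1 L number, and the fits on Adipoq with 1 library left out, were chosen after seeing the data. The cause of the other shifts was not tested.

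Replicate numbers did not pair the samples: of 34 same-numbered pairs 12 correlated above 0.1, and the range was -0.79 to 0.79. With the replicate number as a block, 0 genes were called in each comparison, 35 genes on Adipoq, and 3 of the 9 genes (Plin1, Cfd and Fabp4).

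Depth limits Adipoq and Plin1: at a median of 5 Adipoq and 2 Plin1 reads per library, a change of a few reads was not detectable.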
